A study of Mus musculus with 4 samples.

Results

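The genes described here encode THO and TREX, the protein complexes that package messenger RNA for export from the nucleus. They were measured in sorted alveolar epithelial type II (AT2) cells, which make surfactant. The 10 genes are Thoc1, Thoc2, Thoc3, Thoc5, Thoc6, Thoc7, Ddx39b, Alyref, Nxf1 and Nxt1, chosen by symbol from the 22565 genes of the table. All 10 were found, each on 1 row. Gene positions below are from GENCODE M21 on GRCm38 (mm10). The group was chosen because Thoc6 was higher in both libraries of the knockout, so the Thoc6 difference is given as a description, with no test.

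The study compared 2 libraries labelled KO with 2 labelled WT, all from lungs of 6-month-old untreated mice. KO stands for knockout of Fbxo45, an F-box protein that picks substrates for ubiquitin ligases, and the growth protocol calls these animals conditional (Fbxo45-cKO). The labelled genotype is Fbxo45 for KO replicate 1 but Fbxo46 for KO replicate 2, and the groups here follow the titles. The sources used here do not give the promoter behind the deletion, the exons it removed or whether a mouse stands behind each library, so any p-value measures the spread between these libraries. Fbxo45 stood at 4.41 and 7.58 FPKM in KO and 4.60 and 5.91 FPKM in WT, and Fbxo46 at 3.82 and 4.80 FPKM in KO and 4.13 and 3.79 FPKM in WT. FPKM is the number of fragments scaled by transcript length and by the total of the library. The labelled target thus did not separate the groups, and every direction below is that of libraries labelled KO.

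Depth was 9507424 and 7066421 fragments in KO and 4167116 and 8200170 in WT, recovered from the deposited counts. The 11 AT2 marker genes, all above 0 in the table, had summed levels of 82996 and 117591 FPKM in KO and 131462 and 125182 FPKM in WT. Markers of other lung epithelium were also high, club cell markers summing to 1137 and 807 FPKM in KO and 1317 and 895 FPKM in WT, and AT1 markers to 947 and 603 FPKM in KO and 738 and 606 FPKM in WT. Macrophage markers summed to 13.6 and 7.13 FPKM in KO and 7.47 and 7.34 FPKM in WT, endothelial markers to at most 1.40 FPKM, and T and NK cell markers were listed at 0. Fibroblast and smooth muscle markers summed to 34.4 and 28.7 FPKM in KO and 31.7 and 12.4 FPKM in WT. Ciliated cell markers summed to 22.3 and 16.4 FPKM in KO and 21.7 and 20.3 FPKM in WT. Neutrophil markers summed to 0 and 6.68 FPKM in KO and 3.34 and 0.942 FPKM in WT, and B cell markers to at most 3.16 FPKM. Markers of fast skeletal muscle, 5 genes, summed to 792 FPKM in KO replicate 1 but 5.81 FPKM in its partner, against 0.159 and 4.24 FPKM in WT. KO replicate 1 stands apart in this. For the members, Hcfc1r1 and Acin1, differences that rest on it are also given without it. The other named export genes are given as group means that include it. In whole-population RNA, fewer cells with a transcript and less transcript per cell cannot be told apart.

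Background on the pathway helps to place the members. THO is a complex of the Thoc proteins that joins the RNA helicase Ddx39b and the adaptor Alyref on nascent messenger RNA, and together they form TREX. The RNA is then handed to the export receptor, a dimer of Nxf1 and Nxt1, which carries it through the nuclear pore. Most messenger RNA leaves the nucleus by this route, and in humans variants of THOC2 and THOC6 are known from intellectual disability syndromes.

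Because the Thoc6 gene shares its locus entry in the table with a neighbour, the sequence before its start site is shown first. The stretch below is from RefSeq (GRCm38.p6, the assembly also called mm10), chr17:23673983-23674127, minus strand, and runs from 250 to 106 bases before the annotated Thoc6 start. Capitals mark the 86 bases that are coding sequence of Hcfc1r1, a gene read in the opposite direction, so the capitals show the reverse complement of its coding strand and end with its start codon.
Thoc6: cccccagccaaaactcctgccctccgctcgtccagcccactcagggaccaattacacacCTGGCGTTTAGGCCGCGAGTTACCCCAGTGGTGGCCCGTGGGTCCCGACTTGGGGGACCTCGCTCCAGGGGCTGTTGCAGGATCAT
The first coding exon of the neighbour thus lies just upstream of the Thoc6 start. In the GENCODE M21 annotation Thoc6 (ENSMUSG00000041319) spans 23668614 to 23673882 and Hcfc1r1 spans 23673596 to 23675227 on chromosome 17, and their 5′ ends overlap by 287 bases. A fragment that lies wholly in exon bases of both genes within those 287 bases, and crosses no splice junction, can be placed only by its strand. The library kit keeps strand, but no source used here states the strand setting of the counting, so both genes are reported as uncertain there.

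**Figure D1:**
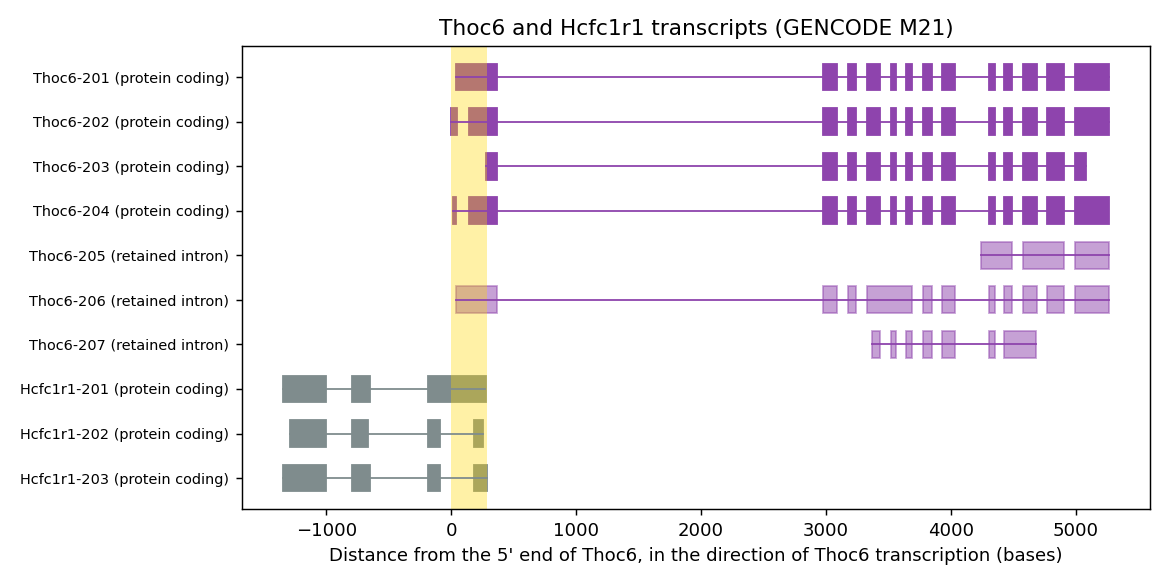
Exons (boxes) of 7 Thoc6 and 3 Hcfc1r1 transcripts by distance from the 5′ end of Thoc6 in bases, 1 transcript per line, with negative values upstream of Thoc6 and paler boxes for transcripts that are not protein coding. The yellow band is the 287 bases where the genes overlap head to head.

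Thoc6, a WD-repeat subunit of THO, was the member with the widest gap between the groups. It stood at 9.23 and 9.44 FPKM in KO replicates 1 and 2, against 2.73 and 2.89 FPKM in WT replicates 1 and 2. The KO values lay close together and above both WT values. The group values were 9.34 ± 0.149 FPKM in KO and 2.81 ± 0.114 FPKM in WT (SD, n = 2 each), a ratio of 3.32 and a log2(FPKM + 1) difference of 1.44. That scale adds 1 FPKM to each value and so understates changes of low genes. This difference chose the gene, and it was 1.45 without KO replicate 1, the library with muscle transcripts.

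The number of Thoc6 fragments differed by less than its FPKM. There were 71 and 53 fragments in KO and 18 and 31 in WT. Scaled to a common library total as CPM, with no length, this gave 7.47 (exact binomial 95% interval 5.83 to 9.42) and 7.50 (5.62 to 9.81) in KO, against 4.32 (2.56 to 6.83) and 3.78 (2.57 to 5.37) in WT. The KO point values again lay above both WT values, and the interval of WT replicate 1 overlapped those of both KO libraries while that of WT replicate 2 did not. The group values were 7.48 ± 0.0229 CPM in KO and 4.05 ± 0.381 CPM in WT (SD, n = 2 each), a ratio of 1.85. Intervals cover counting error only.

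FPKM also depends on the transcript length by which fragments are divided. Dividing a gene's deposited count by its FPKM gives a number that grows with that length, and 453 genes with 1 annotated transcript each set the scale (median error of the implied length 0.996%, 95th percentile 39.9%). That error is for these same genes and for means over libraries. It was not measured for genes with several transcripts, such as Thoc6, or for single libraries. For Thoc6 the implied length was 783 and 818 bases in KO, against 1452 and 1223 bases in WT. Its annotated coding transcripts run from 1083 to 1504 bases, and the shortest of its retained-intron transcripts has 627 bases. The WT values lay within the range of the coding transcripts, and both KO values lay below it. Of 9745 tested genes with a deposited count over 20 in each library, 14.2% had both KO lengths below both WT lengths, and in 1.86% the KO mean was also under 2/3 of the WT mean, as it was for Thoc6 (ratio 0.599). Nxf1 also had both KO lengths below both WT lengths, but KO replicate 2 (2169 bases) was level with WT replicate 1 (2170 bases). Thoc5 and Ddx39b had both above, as did 8.13% of genes. For Ddx39b, KO replicate 2 (1771 bases) was nearly level with WT replicate 2 (1766 bases). Values per gene do not show which transcripts the authors' software assigned, and the lengths enter the FPKM that chose this gene.

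**Figure D2:**
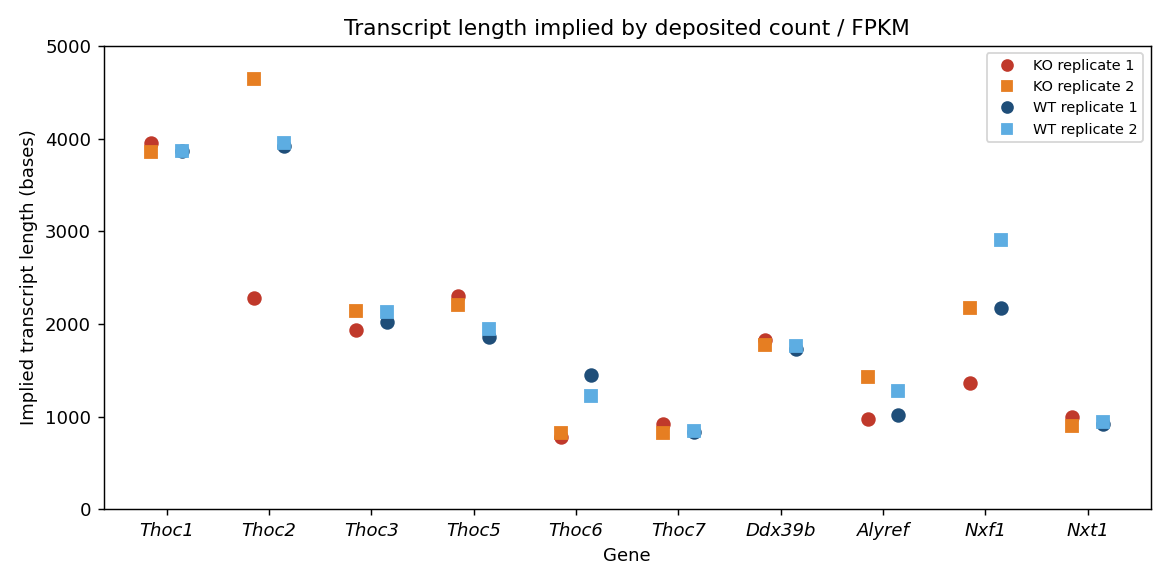
Transcript length in bases implied by deposited count and FPKM, for each member in KO replicates (red circle, orange square) and WT replicates (dark circle, pale square). Thoc6 lies at 783 and 818 bases in KO and 1452 and 1223 bases in WT, and Thoc2 and Nxf1 are shortest in KO replicate 1.

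Hcfc1r1, the head-to-head neighbour, encodes a regulator of the transcription cofactor HCF-1. It stood at 55.7 and 33.9 FPKM in KO replicates 1 and 2, against 28.9 and 33.8 FPKM in WT. KO replicate 1 was high and KO replicate 2 was level with the higher WT library. Its fragments were 42.4 and 20.5 CPM in KO, against 18.2 and 21.1 CPM in WT, so on that scale the groups overlapped. The log2(FPKM + 1) difference was 0.46 (SE 0.286, limma adjusted p = 0.948), or 0.11 without KO replicate 1. Its implied length was 744 and 653 bases in KO and 655 and 650 bases in WT, and the groups overlapped.

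The other 9 members were tested in 1 fit over all genes, with limma on log2(FPKM + 1), KO minus WT, at a Benjamini-Hochberg adjusted p of 0.05. All 10 members were among the 11055 genes that reached 1 FPKM in at least 2 libraries. None of the 9 passed (lowest limma adjusted p 0.948), where limma called 0.0% of all genes. At an unadjusted p under 0.05 stood 0 of the 9 and 4.84% of all genes. With edgeR on the fragments, 0.0% of 11705 genes and none of the 9 were called (lowest edgeR adjusted p 0.999), and 0 of the 9 and 3.18% of all genes had an unadjusted p under 0.05. DESeq2 called 0.0553% of the genes to which it gave an adjusted p, 7 genes, none of the 9 members.

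The differences of the 9 were mostly above 0 on both scales, without a call, and in FPKM this rested on KO replicate 1. The log2(FPKM + 1) difference was above 0 for 8 of 9, where 54.1% of all tested genes were, and above 0 for 7 of 9 with edgeR, where 51.9% were. Both KO values lay above both WT values for 3 of the 9 in FPKM, against 20% of all tested genes, and for the same 3 in CPM, against 16.5%. No member had both KO values below both WT values, against 15.1% of all genes in FPKM and 16.9% in CPM. The median difference of the 9 was 0.32, against 0.035 over all genes tested, and with Thoc6 included it was 0.38. Without KO replicate 1, 4 of the 9 were above 0, against 55.8% of all genes, with medians of -0.106 and 0.064. Without KO replicate 2, 8 of the 9 were above 0, against 51.2% of all genes. In CPM, KO replicate 1 lay above the WT mean for 9 of the 9 and KO replicate 2 for 5. The part of the muscle transcripts of KO replicate 1 in this was not tested.

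**Figure D3:**
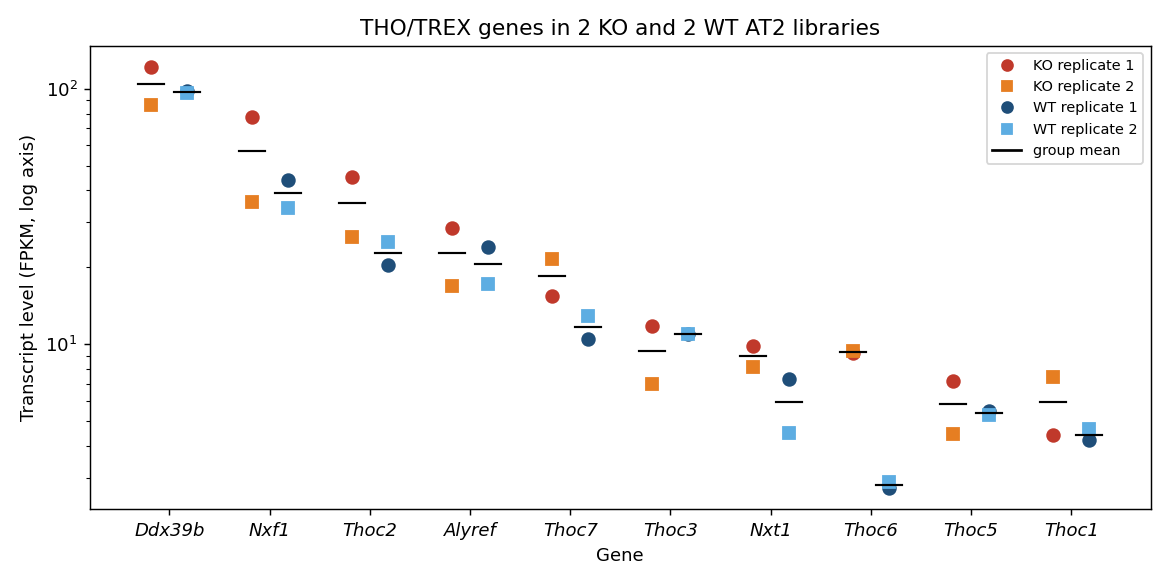
Transcript level in FPKM (log axis) of each member, ordered by its median over 4 libraries, with KO libraries on the left of each gene and WT libraries on the right and black bars for group means. Thoc6 is the member with the widest gap, at 9.23 and 9.44 FPKM in KO and 2.73 and 2.89 FPKM in WT, and Ddx39b is the most abundant.

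The 3 members whose point values did not overlap between the groups were Thoc7, Thoc2 and Nxt1. Their start-site sequences are shown to set them beside that of Thoc6, from RefSeq (GRCm38.p6), with capitals for matches, on either strand, to the motifs CCAAT and GGGCGG, which were 2 of 4 motifs searched. They lie at chr14:13961853-13962102 on the minus strand for Thoc7, chrX:41911902-41912151 on the minus strand for Thoc2 and chr2:148672365-148672600 on the plus strand for Nxt1. The RefSeq start of Thoc2, at 41911901, lies inside the GENCODE span of the gene, where a GENCODE transcript starts farther upstream, at 41920674.
Thoc7: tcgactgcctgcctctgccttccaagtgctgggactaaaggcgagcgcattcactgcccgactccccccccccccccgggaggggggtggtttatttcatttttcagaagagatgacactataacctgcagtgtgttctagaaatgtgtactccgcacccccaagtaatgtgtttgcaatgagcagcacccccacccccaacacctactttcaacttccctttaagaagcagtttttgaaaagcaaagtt
Thoc2: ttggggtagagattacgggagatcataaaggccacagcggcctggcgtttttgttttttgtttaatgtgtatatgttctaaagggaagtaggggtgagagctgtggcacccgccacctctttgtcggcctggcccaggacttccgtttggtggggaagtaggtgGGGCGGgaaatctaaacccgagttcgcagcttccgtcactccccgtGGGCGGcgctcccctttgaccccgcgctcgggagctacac
Nxt1: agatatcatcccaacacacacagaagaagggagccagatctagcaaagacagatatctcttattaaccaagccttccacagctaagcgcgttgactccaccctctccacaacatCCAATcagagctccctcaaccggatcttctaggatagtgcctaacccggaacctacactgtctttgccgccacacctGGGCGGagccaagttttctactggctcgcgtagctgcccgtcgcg
The RefSeq table held a window of 300 bases for 8 of the 10 members. CCAAT, the letters bound by the factor NF-Y, occurred in 3 of the 8 windows (Alyref, Nxt1 and Thoc6) and in 37.92% of 27025 windows of all genes. GGGCGG, the GC box, occurred in 5 of 8 (Alyref, Nxf1, Nxt1, Thoc2 and Thoc6) and in 35.91% of all. TATAAA occurred in 1 of 8, that of Alyref, and in 14.16% of all, and the palindromic motif of the factor NRF1 in 0 of 8 and 0.98% of all. No motif was common to all 4 members whose KO values were both higher, and the Thoc7 window held none of the 4.

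Thoc7, on chromosome 14 (13949012 to 13961852, minus strand), encodes a small coiled-coil subunit of THO. Its locus entry runs from 13918444 to 13961225, past the 3′ end of the GENCODE gene, and overlaps the entry of no other gene. The share of its fragments from that added stretch is not known. At the other end the entry stops short of the GENCODE 5′ end, before which the start-site sequence printed above lies. Thoc7 stood at 15.4 and 21.6 FPKM in KO, against 10.5 and 12.9 FPKM in WT. Both KO values were above both WT values, KO replicate 2 most. The log2(FPKM + 1) difference was 0.61 (SE 0.263, limma adjusted p = 0.948). In fragments it stood at 15.0 and 17.3 CPM in KO and 8.88 and 11.0 CPM in WT, with an edgeR log2 difference of 0.68 (adjusted p = 0.999). The ratio of group means was 1.58 in FPKM and 1.63 in CPM, and the implied length of 919 and 821 bases in KO and 834 and 840 bases in WT did not separate the groups. With KO replicate 1 left out the log2(FPKM + 1) difference was 0.84, and with KO replicate 2 left out it was 0.37.

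Thoc2, on chromosome X (41794991 to 41920674, minus strand), encodes the large scaffold subunit of THO. It stood at 45.3 and 26.2 FPKM in KO, against 20.5 and 25.1 FPKM in WT. KO replicate 1 was high and KO replicate 2 lay just above the higher WT library. This gave a log2(FPKM + 1) difference of 0.58 (SE 0.307, limma adjusted p = 0.948). The height of KO replicate 1 was not in the fragments, which stood at 120 and 136 CPM in KO and 92.9 and 115 CPM in WT. Its implied length was 2284 bases in KO replicate 1, against 4645 bases in KO replicate 2 and 3925 and 3955 bases in WT. The ratio of group means was 1.57 in FPKM and 1.24 in CPM, with an edgeR log2 difference of 0.29 (adjusted p = 0.999). Without KO replicate 1 the log2(FPKM + 1) difference was 0.20.

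Nxt1, on chromosome 2 (148672601 to 148676027, plus strand), encodes the small partner of the export receptor. It stood at 9.85 and 8.17 FPKM in KO, against 7.33 and 4.51 FPKM in WT. The gap between KO replicate 2 and WT replicate 1 was smaller than that between the WT libraries. On the log2(FPKM + 1) scale the difference was 0.56 (SE 0.302, limma adjusted p = 0.948), and the edgeR log2 difference was 0.66 (adjusted p = 0.999). It rested on 100 and 51 fragments in KO and 29 and 36 in WT, which is 10.5 (exact binomial 95% interval 8.56 to 12.8) and 7.22 (5.37 to 9.49) CPM in KO and 6.96 (4.66 to 9.99) and 4.39 (3.08 to 6.08) CPM in WT. The intervals of KO replicate 2 and WT replicate 1 overlapped, so the order of these libraries was not resolved at this depth. With 1 library left out in turn, the log2(FPKM + 1) difference ranged from 0.26 without WT replicate 2 to 0.86 without WT replicate 1, and it was 0.44 without KO replicate 1.

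Nxf1, on chromosome 19 (8757073 to 8770922, plus strand), encodes the main export receptor. It stood at 77.8 and 35.9 FPKM in KO, against 43.9 and 34.2 FPKM in WT. KO replicate 1 was far above the other libraries and KO replicate 2 lay between the WT values. This made a log2(FPKM + 1) difference of 0.44 (SE 0.383, limma adjusted p = 0.948), but on fragments the direction was the opposite, with an edgeR log2 difference of -0.12 (adjusted p = 0.999). The fragments stood at 119 and 84.2 CPM in KO and 107 and 113 CPM in WT, and the groups overlapped. Its implied length was 1367 bases in KO replicate 1, against 2169 bases in KO replicate 2 and 2170 and 2901 bases in WT. Thoc2 and Nxf1 were the 2 of the 10 members whose implied length in KO replicate 1 was under 2/3 of that in each other library, which held for 3.35% of all genes measured. Without that library the Nxf1 difference in log2(FPKM + 1) was -0.11. The locus entry of Nxf1 is shared with Tmem223 on the same strand, so its counts are uncertain.

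**Figure D4:**
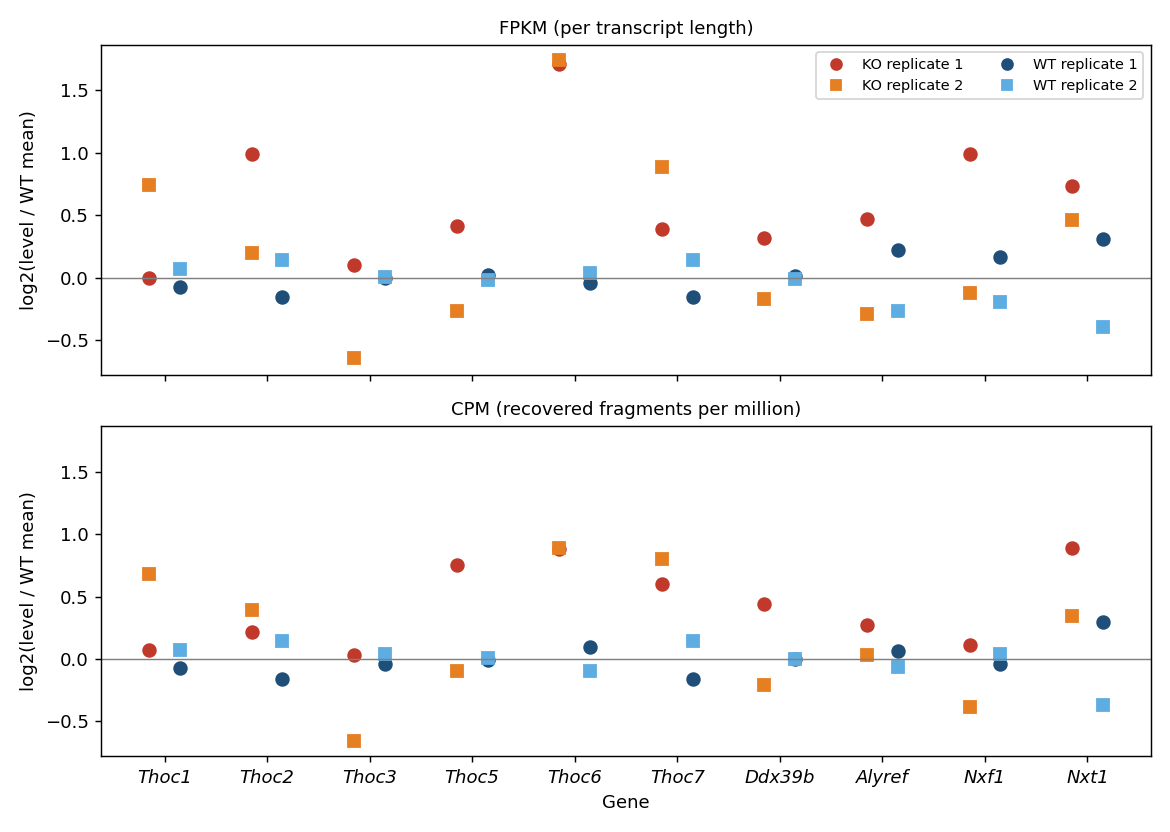
Level of each member in each library as log2 of its ratio to the WT mean, in FPKM (top) and in CPM from recovered fragments (bottom), KO libraries on the left of each gene and WT libraries on the right. The KO values of Thoc6 are 1.71 and 1.75 in FPKM and 0.88 and 0.89 in CPM, and KO replicate 1 of Thoc2 and Nxf1 lies nearer the other libraries in CPM.

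Ddx39b, also called UAP56, is the helicase that loads the export machinery, and it was the most abundant member. It lies on chromosome 17 (35241746 to 35253707, plus strand). It stood at 122 and 86.5 FPKM in KO, against 98.3 and 96.5 FPKM in WT. The KO libraries lay on either side of the WT libraries, which were close together. In log2(FPKM + 1) the difference was 0.07 (SE 0.231, limma adjusted p = 0.983), or -0.17 without KO replicate 1. In fragments it stood at 255 and 163 CPM in KO and 188 and 189 CPM in WT, again with the KO libraries on either side. Its locus entry in the table is shared with 5 other genes, all on the same strand, so its values are uncertain. No stretch of 100 bases in its annotated transcripts, compared in the sense direction only, occurred in those of another gene.

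Alyref, on chromosome 11 (120592121 to 120598365, minus strand), encodes the adaptor that recruits the receptor. It stood at 28.5 and 16.9 FPKM in KO, against 24.1 and 17.2 FPKM in WT. In each group 1 library was high and 1 was low, and the groups overlapped fully. The log2(FPKM + 1) difference was 0.11 (SE 0.321, limma adjusted p = 0.983), or -0.25 without KO replicate 1. In fragments the 4 libraries were nearer each other, at 29.7 and 25.2 CPM in KO and 25.7 and 23.5 CPM in WT. Its implied length was shorter in the libraries with the higher FPKM, at 971 bases in KO replicate 1 and 1019 bases in WT replicate 1, against 1426 bases in KO replicate 2 and 1277 bases in WT replicate 2.

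The remaining THO subunits split the KO libraries. Thoc1, on chromosome 18 (9957906 to 9995489, plus strand), is the counterpart of yeast Hpr1, and its locus entry is shared with Usp14 on the opposite strand, so its counts are uncertain. It stood at 4.41 and 7.42 FPKM in KO and 4.20 and 4.65 FPKM in WT. KO replicate 2 alone was high, and the log2(FPKM + 1) difference of 0.32 (SE 0.317, limma adjusted p = 0.95) was -0.004 without it. Thoc3, a WD-repeat subunit encoded on chromosome 13 (54458837 to 54468849, minus strand), stood at 11.7 and 7.0 FPKM in KO and 10.9 and 11.0 FPKM in WT. KO replicate 2 alone was low, and the difference was -0.24 (SE 0.297, limma adjusted p = 0.962), or 0.093 without that library. Thoc5, a coiled-coil subunit that pairs with Thoc7, encoded on chromosome 11 (4895320 to 4928867, plus strand), stood at 7.17 and 4.46 FPKM in KO and 5.46 and 5.29 FPKM in WT. The KO values lay on either side of the WT pair, with a difference of 0.07 (SE 0.301, limma adjusted p = 0.988), or -0.22 without KO replicate 1.

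In these 3 genes the fragments told the same order of libraries as the FPKM of the KO pair. Thoc1 stood at 20.7 and 31.7 CPM in KO and 18.7 and 20.7 CPM in WT, Thoc3 at 26.1 and 16.1 CPM in KO and 24.7 and 26.2 CPM in WT, and Thoc5 at 19.1 and 10.6 CPM in KO and 11.3 and 11.5 CPM in WT. The exact binomial 95% intervals of the KO pair did not overlap in any of the 3: for Thoc1 they were 17.9 to 23.8 and 27.7 to 36.1 CPM, for Thoc3 22.9 to 29.5 and 13.3 to 19.4 CPM, and for Thoc5 16.5 to 22.1 and 8.35 to 13.3 CPM. KO replicate 1 was the higher of the pair for Thoc3 and Thoc5 and the lower for Thoc1. Such a gap was not particular to these 3. The intervals were also apart for Ddx39b (244.9 to 265.3 and 153.9 to 172.9 CPM) and Nxf1 (112 to 126 and 77.57 to 91.25 CPM). They were apart for the neighbour Hcfc1r1 too (38.35 to 46.74 and 17.32 to 24.14 CPM). The share of all genes with such a gap was not computed.

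Compared per transcript length, the members covered a wide range. Ddx39b had a median of 97.4 FPKM over the 4 libraries, followed by Nxf1 at 39.9, Thoc2 at 25.7, Alyref at 20.6, Thoc7 at 14.2, Thoc3 at 11.0, Nxt1 at 7.75, Thoc6 at 6.06, Thoc5 at 5.37 and Thoc1 at 4.53 FPKM. Only Ddx39b stood clear of its neighbour in that order, its lowest library (86.5 FPKM) being above the highest of Nxf1 (77.8 FPKM). Every other pair of neighbours overlapped in range. Among the 6 THO subunits Thoc2 was highest in every library, and the ratio of the highest to the lowest was 10.3 and 5.87 in KO and 7.51 and 8.68 in WT. Thoc6 was the lowest of the 6 in both WT libraries and in neither KO library, where Thoc1 and Thoc5 were lowest. Nxf1 exceeded its partner Nxt1 by 7.90 and 4.40 times in KO and by 5.99 and 7.59 times in WT. Set among the 11055 tested genes by mean FPKM, Ddx39b was at percentile 96.0 and Thoc1 at percentile 28.8. The order and ratios depend on the lengths by which fragments were divided. The implied length of Thoc2 was 2284 bases in KO replicate 1, where the ratio was 10.3, and its longest coding transcript has 7622 bases. Alyref had implied lengths of 971 to 1426 bases, and its only coding transcript has 3527 bases.

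Most paralogs of members stood lower than the members. Ddx39, the close paralog of Ddx39b, was at 4.69 and 8.97 FPKM in KO and 4.85 and 5.29 FPKM in WT. Nxt2 was at 4.96 and 5.82 FPKM in KO and 4.47 and 7.33 FPKM in WT, near the level of Nxt1. Alyref2, a retrogene copy of Alyref, was at 1.36 and 0.113 FPKM in KO and 2.55 and 0.920 FPKM in WT. Nxf2 and Nxf7 were listed at 0 in all 4 libraries, and Nxf3 rested on at most 6 fragments. Transcripts of the 10 members were compared with those of other genes in GENCODE M21 in the sense direction only. They shared no stretch of 100 bases with another gene, these paralogs included. Opposite strands, as in the 287 bases where Thoc6 and Hcfc1r1 overlap, were not compared.

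By distance between log2(FPKM + 1) profiles over the 4 libraries, each centred on its own mean, the genes most like Thoc6 were Zfp61 (distance 0.247), the predicted genes Gm12666 (0.261) and 1700029J07Rik (0.269), Rrp8 (0.277) and Sult5a1 (0.325). Zfp61 stood at 8.75 and 10.2 FPKM in KO and 3.20 and 3.69 FPKM in WT, and Rrp8 at 17.3 and 15.5 FPKM in KO and 5.44 and 7.02 FPKM in WT. Gm12666, 1700029J07Rik and Sult5a1 were at 1.30 to 2.15 FPKM in KO and at 0 to 0.236 FPKM in WT, so they entered the tested genes only through the KO libraries. The likeness is to the values that chose Thoc6 and, with 4 libraries, is a description only. Of the other members Thoc7 came closest at 0.902, rank 360, and Thoc3 was farthest at 1.75, rank 8591. Ranks are among the 11055 tested genes, with Thoc6 itself not counted.

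The wider export pathway was described by 5 lists with 43 genes in the table, of which 40 were tested. Limma called 0 of the 40 in either direction (lowest adjusted p 0.948), where it called 0.0% of all genes. An unadjusted limma p under 0.05 was reached by 3 of the 40 and by 4.84% of all genes. With edgeR, 0 of the 40 and 0.0% of all genes were called, and 0 and 3.18% had an unadjusted p under 0.05. The difference was above 0 for 32 of 40 with limma and 28 of 40 with edgeR, with medians of 0.15 and 0.07, where 54.1% and 51.9% of all genes were above 0. Both KO values lay above both WT values for 13 of 40 and below for 3, where 20% and 15.1% of all genes were. Without KO replicate 1, 26 of 40 were above 0, against 55.8% of all genes. Without KO replicate 2, limma called 1 of them, Acin1 of the exon junction complex, at a difference of 1.27 (adjusted p = 0.0351), in a fit that called 1.21% of all genes. Without KO replicate 1 its difference was 0.28 (limma adjusted p = 0.321). Acin1 stood at 120 and 59.7 FPKM in KO and 47.2 and 50.8 FPKM in WT.

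By list, TREX adaptors and paralogs had 6 of 10 tested genes above 0 with limma and 6 with edgeR (medians 0.02 and 0.02). Fyttd1, an adaptor also called UIF, was at 51.6 ± 11.8 FPKM in KO and 29.2 ± 2.50 FPKM in WT (SD, n = 2 each), with an edgeR log2 difference of 0.20 where limma gave 0.78. Erh was at 16.2 ± 1.08 FPKM in KO and 9.90 ± 1.87 FPKM in WT, and Sarnp, a TREX protein that binds the helicase, at 1.66 ± 1.04 FPKM in KO and 3.80 ± 0.573 FPKM in WT. The 6 TREX-2 genes, which tie transcription to the pore, were all above 0 with limma (median 0.33) and 5 of 6 with edgeR (median 0.40), among them Cetn3 at 14.7 ± 2.38 FPKM in KO and 8.69 ± 1.27 FPKM in WT, Eny2 at 12.6 ± 4.39 FPKM in KO and 8.49 ± 0.994 FPKM in WT, and Cetn2 at 11.7 ± 3.72 FPKM in KO and 8.31 ± 3.28 FPKM in WT. Without a call these are values and not changes.

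The 3 cap-binding genes had differences from 0.12 to 0.31 with limma (median 0.18), while with edgeR 2 of 3 were above 0 (median 0.03) and Ncbp2 was at -0.09. Srrt was at 18.5 ± 4.70 FPKM in KO and 14.4 ± 0.967 FPKM in WT, Ncbp1 at 12.8 ± 0.587 FPKM in KO and 11.2 ± 1.88 FPKM in WT, and Ncbp2 at 16.4 ± 3.11 FPKM in KO and 15.0 ± 2.54 FPKM in WT (SD, n = 2 each). Of 9 genes of the exon junction complex, which marks spliced RNA, 8 were above 0 with limma (median 0.15) and 6 with edgeR (median 0.16), among them Rbm8a at 10.7 ± 1.23 FPKM in KO and 7.40 ± 1.09 FPKM in WT and Magohb at 4.66 ± 0.00773 FPKM in KO and 3.67 ± 1.44 FPKM in WT. Of 12 genes of the pore and of release at its outer face, 9 were above 0 with limma and 9 with edgeR (medians 0.12 and 0.07). Nup98 was at 29.9 ± 3.15 FPKM in KO and 23.9 ± 1.21 FPKM in WT, Nup62 at 6.28 ± 0.207 FPKM in KO and 7.95 ± 0.892 FPKM in WT, and Ranbp2 at 45.4 ± 4.54 FPKM in KO and 38.3 ± 3.39 FPKM in WT.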

How the data were processed

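The members and lists were chosen with earlier results of these data known. Per the submitters' processing notes, cutadapt 1.9.3, HISAT2 2.0.4, Cufflinks and Cuffdiff 2.2.1 were used with mm10, and no source used here states the annotation release or parameters. The authors deposited FPKM per gene and library, per the file headers. The deposited counts are estimated counts, scaled by 1 constant per library. Dividing by it made 91.0% to 92.6% of positive values whole within 0.05, and these fragments were rounded. CPM scales them to a common total. Values are from single libraries, 2 per group, and all FPKM and count columns were used.

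KO and WT were compared mainly by limma 3.58.1 in R 4.3.3, with a mean-variance trend, on log2(FPKM + 1) over genes with at least 1 FPKM in 2 of 4 libraries. edgeR 4.0.16 (quasi-likelihood, TMM) and DESeq2 1.42.0 were run on fragments. These fits were tested on simulated data. Genes were named by a written rule: the members, up to 3 genes per export list by smallest p, the neighbour of Thoc6 and its 5 nearest profiles. The paralogs, the implied length and the stretches of 100 bases were added after the values were seen. The count per FPKM was turned into a length by a line through genes with 1 transcript of 500 to 6000 bases.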

Additional observations from a re-analysis of the deposited data

How the results depend on the processing

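None of the 9 tested members reached an adjusted p under 0.05 in any of 125 results under alternative settings. The lowest was 0.0766, for Thoc2 without KO replicate 2, and 12 of the 125 turned direction. Nxf1 was at -0.124 with edgeR on fragments, -0.123 with edgeR and no filter, -0.119 with DESeq2 and -0.106 without KO replicate 1. Without KO replicate 1, Alyref was at -0.255, Ddx39b at -0.169 and Thoc5 at -0.222. Without KO replicate 2, Thoc1 was at -0.004 and Thoc3 at 0.093, and without WT replicate 2 Alyref was at -0.127. Upper quartile scaling put Ddx39b at -0.013 and Thoc5 at -0.007. Leaving out 1 library in turn gave at the other end of the range 0.467 for Alyref, 0.318 for Ddx39b, 0.988 for Nxf1 and 0.358 for Thoc5, all without KO replicate 2, and 0.635 for Thoc1 and -0.579 for Thoc3 without KO replicate 1. FPKM divides by a length and fragments do not. The cause of these turns of direction was not tested.

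The log2 difference of Thoc6 was 1.439, and 1.696 at a pseudocount of 0.1, 1.366 with upper quartile scaling, 1.487 with equal totals, 0.883 with edgeR with and without its filter and 0.890 with DESeq2. Leaving out 1 library each gave 1.409 to 1.470. The median of the 10 members was 0.378 and ranged from 0.047 to 0.420 when 1 library was left out. Over the 9 without Thoc6 it was -0.106 without KO replicate 1. With all 10 it lay between 0.298 and 0.430 under the other settings, and over 9 at the filter of 5 FPKM, which Thoc1 missed, it was 0.441. Genes past the threshold numbered 0, but 5 with edgeR and no filter, 7 with DESeq2, and 0 to 134 when 1 library was left out (134 without KO replicate 2, 3 without WT replicate 2). Among export genes the number was 0 to 1. Where a group kept 1 library, it was assumed to vary like the other pair.

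A replicate block moved no member past the threshold. Its log2 difference for Thoc6 was 1.439 and it called 0 genes. The deviations of KO and WT replicate 1 correlated at 0.0257 over genes, and no label ties equal numbers.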
